A study of Mus musculus with 7 samples.

Results

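The subject of these results is a set of 32 glycolysis and hypoxia-response genes, measured cell by cell in mouse brain tumours. The members were chosen by symbol, and all 32 were found among the 32285 genes of the deposited tables. They comprise the glucose transporters Slc2a1 and Slc2a3, 13 glycolytic enzymes (Hk1, Hk2, Gpi1, Pfkl, Pfkp, Aldoa, Aldoc, Tpi1, Gapdh, Pgk1, Pgam1, Eno1 and Pkm), the lactate and pyruvate genes Ldha, Slc16a3 and Pdk1, the oxygen-sensing genes Hif1a, Egln1 and Egln3, and 11 other hypoxia targets (Car9, Bnip3, Ndrg1, Adm, P4ha1, P4ha2, Ankrd37, Ddit4, Kdm3a, Mxi1 and Higd1a). Whole tumours of the NSCG-mCherry line, which is EGFRvIII+ and Arf/Ink4a-/-, were grown in wild-type C57BL/6 mice aged 7 to 10 weeks and collected at about day 14. Tumours of at least 2 mice were pooled into each of 7 droplet single-cell RNA libraries, so single mice cannot be told apart and every p-value below describes the spread between pooled libraries.

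The UT library came from untreated mice. Mice of the 2 IgG libraries received an IgG2b isotype control antibody at 10 mg/kg, and the labels add an oral diluent for the controls of the BPI arm without saying which library holds those mice. The BP group (2 libraries) received the VEGF antibody B20 at 5 mg/kg together with 10 mg/kg of a PD-L1 antibody, every 3 days from day 6 to 7 for 3 rounds. The BPI group (1 library) received the same antibodies plus daily oral IPI-145 at 10 mg/kg, a drug that blocks the delta and gamma forms of PI3K. The CD40 group (1 library) received an agonist antibody at 100 µg in 2 doses given 5 days apart, and whether a dendritic cell vaccine was added is not settled by the labels. VEGF was blocked in BP and BPI alike, and PD-L1 was blocked in both as well, so these 2 blockades cannot be told apart. All 7 libraries are from the same tumour line.

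Glycolysis splits glucose into pyruvate, and cells short of oxygen, or dividing fast, turn much of that pyruvate into lactate through Ldha and export it through transporters such as Slc16a3. The transcription factor subunit Hif1a is marked for destruction by the prolyl hydroxylases Egln1 and Egln3 while oxygen is present. When oxygen falls, Hif1a accumulates as protein, pairs with Arnt and raises many of the genes listed above, Egln3 among them, and in gliomas this response is best known from cells around necrotic or poorly perfused areas. Hif1a mRNA itself is not a readout of the protein.

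The promoter sequences of members that carry the comparisons are shown here because the HIF pair binds a short core, ACGTG or GCGTG. Both cores were searched on both strands, and a palindromic match counts once for each strand. RefSeq promoter windows of GRCm38.p6, from 250 bases before to 50 bases after a start, were found for 30 of the 32 genes (43 windows). Of these windows 34 (79.1%) held either core, against 43.8% of all 32851 promoter windows. ACGTG occurred in 55.8% of the member windows and in 19.6% of all windows, and GCGTG in 53.5% and 32.4%. At least 1 window with a core was found for 28 of the 30 genes. A match is a description of the letters and not evidence of a bound site. The windows of Slc2a1 (chr4:119108495-119108794, plus strand, 2 matches) and Pfkp (chr13:6648722-6649021, minus strand, 4 matches) are printed because these genes recur in the macrophage comparison, and they were chosen after their values were seen. Those of Bnip3 (chr7:138909457-138909756, minus strand, 5 matches), Pdk1 (chr2:71872974-71873273, plus strand, 2 matches) and P4ha1 (chr10:59323046-59323345, plus strand, 3 matches) had the largest positive differences in the tumour cell split described further on. A second Pdk1 window (chr2:71874654-71874953) held 0 matches. Capitals mark the cores, written 5′ to 3′ on the gene's strand, and a core on the opposite strand reads CACGT or CACGC.
Slc2a1: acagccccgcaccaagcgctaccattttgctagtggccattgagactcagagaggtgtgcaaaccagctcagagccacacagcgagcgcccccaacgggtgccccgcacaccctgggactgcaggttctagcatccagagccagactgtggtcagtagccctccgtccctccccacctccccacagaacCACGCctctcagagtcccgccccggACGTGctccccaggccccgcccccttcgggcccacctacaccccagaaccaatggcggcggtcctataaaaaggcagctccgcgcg
Pfkp: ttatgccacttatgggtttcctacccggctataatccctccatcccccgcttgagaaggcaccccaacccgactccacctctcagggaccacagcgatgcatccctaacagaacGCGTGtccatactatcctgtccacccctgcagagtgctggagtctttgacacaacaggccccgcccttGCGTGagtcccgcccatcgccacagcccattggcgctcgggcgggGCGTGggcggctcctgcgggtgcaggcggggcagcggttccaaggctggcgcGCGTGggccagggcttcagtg
Bnip3: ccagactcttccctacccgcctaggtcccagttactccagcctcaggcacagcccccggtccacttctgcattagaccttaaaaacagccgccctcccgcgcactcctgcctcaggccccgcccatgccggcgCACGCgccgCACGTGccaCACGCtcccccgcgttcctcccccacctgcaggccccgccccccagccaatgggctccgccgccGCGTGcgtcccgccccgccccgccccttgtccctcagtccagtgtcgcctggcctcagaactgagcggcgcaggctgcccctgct
Pdk1: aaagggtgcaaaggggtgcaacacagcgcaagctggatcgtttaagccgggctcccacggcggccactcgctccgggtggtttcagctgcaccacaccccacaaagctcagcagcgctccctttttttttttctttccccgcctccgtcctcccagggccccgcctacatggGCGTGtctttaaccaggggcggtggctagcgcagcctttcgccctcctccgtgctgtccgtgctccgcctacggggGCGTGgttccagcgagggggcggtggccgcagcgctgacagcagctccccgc
P4ha1: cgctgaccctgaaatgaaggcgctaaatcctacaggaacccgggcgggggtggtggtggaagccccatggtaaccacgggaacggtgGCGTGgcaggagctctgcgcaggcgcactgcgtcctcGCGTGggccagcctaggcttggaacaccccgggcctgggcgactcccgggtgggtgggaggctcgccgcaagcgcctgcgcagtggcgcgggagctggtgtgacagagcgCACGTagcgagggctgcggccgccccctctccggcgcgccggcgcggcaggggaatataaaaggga
The Pfkp window holds GCGTG only, the Pdk1 window likewise, and the other windows shown hold both cores.

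The libraries held 68997476 to 186793886 UMIs (unique molecules) in all, and 5373 to 9650 cells each after filtering, 48588 cells together. Cells were grouped into classes by marker genes, and the name of a class is a likeness to those markers only: tumour-like (31444 cells), monocyte/macrophage-like (3599), T-like (2619), microglia-like (2337) and endothelial-like (435). Another 5740 cells stayed unnamed: 28.6% of UT, 20.2% of IgG replicate 1 and 4.31% of IgG replicate 2. Many were shallow cells nearest to the tumour markers. Among them was cluster 9, with 1380 cells of UT and with Eno1 and Aldoc among its leading genes. The shallow cluster 17, mainly of IgG replicate 2 and CD40, was kept as tumour-like, so this class was cut differently between libraries. Levels are given as CPM, the UMIs of a gene scaled to a common total of all UMIs of that class in that library. They are not corrected for gene length, so genes are compared across cells and libraries and not with each other. The defining markers were present in each class: all 16 tumour markers, 12 monocyte/macrophage markers, 10 microglia markers, 10 T markers and 10 endothelial markers had UMIs in their own class in every library. Free RNA was estimated at 1.55% to 7.29% of the UMIs of tumour-like cells, 7.09% to 11.0% in macrophages, 4.45% to 19.0% in microglia, 2.20% to 12.0% in T-like cells and 0% to 25.7% in endothelial-like cells. At most 27 cell barcodes were shared by any pair of libraries. Some classes were thin: IgG replicates 1 and 2 held 77 and 64 monocyte/macrophage-like cells and 39 and 58 T-like cells, and BP replicate 2 held 6 endothelial-like cells.

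The libraries also stood apart by their numbering, which the labels give and which partly coincides with treatment, since the lone BPI, CD40 and UT libraries each belong to 1 set. IgG replicate 1, BP replicate 2 and BPI carry consecutive library numbers, as do CD40 and IgG replicate 2, while BP replicate 1 and UT stand alone. Tumour-like cells of the consecutive trio fell almost wholly into other clusters than those of the remaining libraries. The remaining libraries were also divided. Cluster 2 held 4344 cells, 4244 of them from BP replicate 1, and cluster 11 held 1522, 1507 of them from UT. IgG replicate 2 and CD40 held most of clusters 3, 4, 6 and 7. No tumour-like cluster held at least 20 cells in every library. The summed tumour marker level of the trio was 1444 to 1673 CPM, against 2851 to 3639 CPM in the other 4 libraries. Comparisons inside the trio rest on 1 library against 1 and have no test, and those across sets mix treatment with library number. Both kinds are given below for the classes that were tested. They use log2 CPM rescaled between libraries (TMM) and not the CPM printed, so a small difference can have the other sign in the printed CPM.

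Each class had its own profile of the pathway. By the median over the 7 libraries, endothelial-like cells held the highest level of 10 members, microglia-like cells of 8, monocyte/macrophage-like cells of 7, tumour-like cells of 5 and T-like cells of 2. A lead by median did not always hold by library. T-like cells were highest for Hif1a in 1 of 7 libraries, and macrophages were highest for Gpi1, Ldha, Slc16a3 and Bnip3 in 4 of 7. The endothelial-like medians include libraries of 6, 13, 23 and 26 cells. Summed over the 32 members, the level was 2911 to 6656 CPM in tumour-like cells, 3478 to 9539 CPM in macrophages, 2084 to 6858 CPM in microglia, 2713 to 5783 CPM in endothelial-like cells and 1925 to 6452 CPM in T-like cells. UT gave the highest of these sums in all 5 classes, and it was the library with its own barcode list. These class differences are descriptions over the same 7 libraries, without a test.

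**Figure D1:**
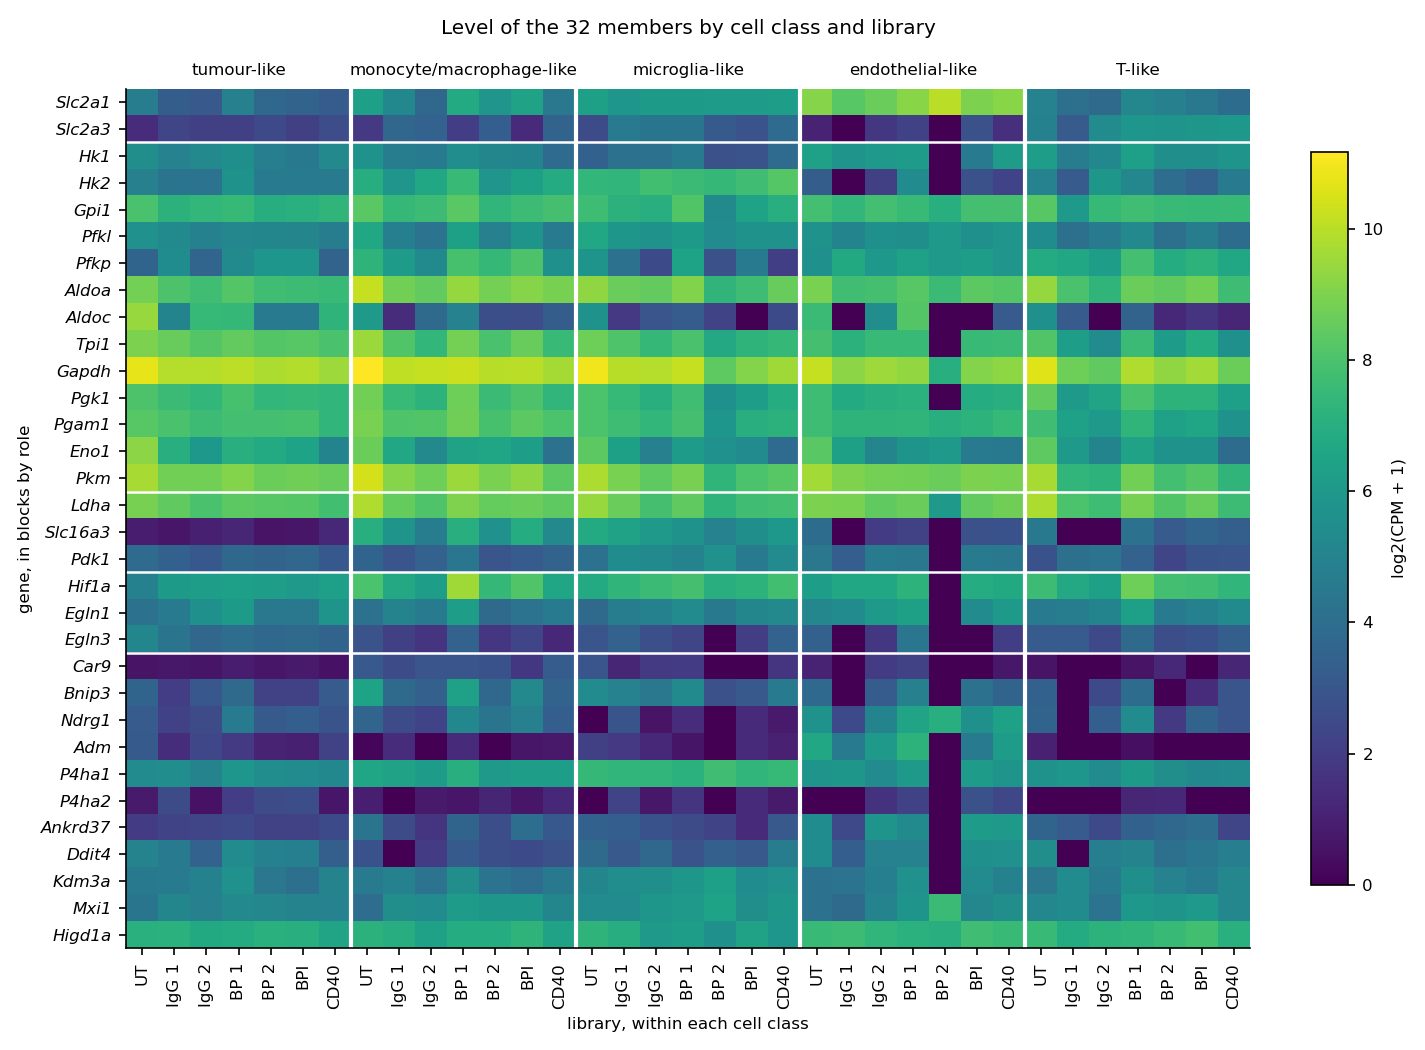
Levels of the 32 members (log2 scale of CPM, in the groups of genes used in the text) in each cell class and library. By the median over libraries Slc2a1, Ndrg1, Adm and Ankrd37 are highest in endothelial-like cells, Hk2 and P4ha1 in microglia-like cells, and Aldoc and Eno1 in tumour-like cells.

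Glucose uptake was split between the transporters. Slc2a1, the main glucose transporter of the blood-brain barrier (chr4:119108711-119137983, plus strand), was at 564 CPM in UT, 307 and 387 CPM in the IgG libraries, 580 and 1034 CPM in the BP libraries, 502 in BPI and 572 in CD40 in endothelial-like cells. It was highest there in 7 of 7 libraries, with a median 8.17 times that of microglia-like cells and 51.9 times that of tumour-like cells. The value of 1034 CPM rests on 16 UMIs (exact 95% Poisson interval 591 to 1678 CPM), and these intervals cover counting error only. Slc2a3, a high-affinity transporter, was highest in T-like cells in 6 of 7 libraries, at 8.19 to 61.2 CPM there, and microglia came next.

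Among the hexokinases, which trap glucose by phosphorylation, Hk2 was highest in microglia-like cells in 7 of 7 libraries (162 to 298 CPM), and its median there was 1.85 times that of macrophages. Hk1 was lowest in microglia (5.92 to 23.7 CPM), so the pair had opposite orders. The aldolase Aldoa and the downstream enzymes Gapdh and Pgam1 were highest in monocyte/macrophage-like cells in 7 of 7 libraries, although for Gapdh the median exceeded that of microglia only 1.13 times. Pgk1 and Pkm, which make ATP directly, were also highest there, in 5 of 7 libraries against the class that came next. Tpi1, Gpi1 and Ldha, the enzyme that makes lactate, differed by at most 1.11 times between the medians of the top classes and changed order between libraries. Slc16a3, the lactate exporter, was low in tumour-like cells (0.49 to 1.44 CPM) and reached 29.6 to 113 CPM in microglia and 25.2 to 131 CPM in macrophages.

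In tumour-like cells Aldoc, the brain form of aldolase (chr11:78322968-78327781, plus strand), and Eno1, the enolase, were the distinctive members. Aldoc was at 706 in UT, 32.3 and 176 CPM in the IgG libraries, 174 and 22.2 in BP, 22.5 in BPI and 153 in CD40. The 3 libraries with consecutive numbers were the low ones, whatever their treatment, and UT was far above the rest. Aldoc was highest in tumour-like cells in 6 of 7 libraries and in endothelial-like cells in 1. Where the other 4 classes held any Aldoc UMIs, free RNA was estimated to give 6.22% to 100% of them, the lowest share being that of endothelial-like cells in BP replicate 1. Eno1 was at 603 in UT and 32.02 to 132 CPM elsewhere in tumour-like cells, highest of all classes in 7 of 7 libraries. The near-identical copy Eno1b was listed separately at 9.87 to 24.1 CPM, and how reads were divided between the copies is uncertain. A second Aldoa entry held at most 1.80 CPM in these cells.

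Of the oxygen sensors, Egln3 was highest in tumour-like cells in 6 of 7 libraries (10.8 to 33.98 CPM), Egln1 in endothelial-like cells by its median, and Hif1a in T-like cells by its median, with macrophages next. Endothelial-like cells held the highest medians of Adm, the vasodilator peptide adrenomedullin (23.7 times that of tumour-like cells), Ndrg1, a stress-response gene (4.43 times that of macrophages), and Ankrd37, a HIF target of unsettled role (4.10 times that of T-like cells). Microglia led for the collagen prolyl hydroxylase P4ha1 (140 to 215 CPM) and the histone demethylase Kdm3a, both in 7 of 7 libraries. They also led by median for Pfkl, the pyruvate dehydrogenase kinase Pdk1, the mitophagy gene Bnip3 and the Myc antagonist Mxi1. Car9, the carbonic anhydrase used as a hypoxia marker, was low everywhere, and was highest in macrophages in 7 of 7 libraries at only 2.49 to 8.54 CPM. P4ha2 stayed under 6 CPM in all classes. Ddit4, an inhibitor of mTOR signalling, was lowest in macrophages (0 to 7.86 CPM), and the mitochondrial gene Higd1a lay between 47.4 and 217 CPM in all classes and libraries.

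From cell to cell, most members varied little beyond counting noise in tumour-like cells. Each cell was thinned to 2000 UMIs, and the Fano factor (variance divided by mean, 1 for pure counting noise) was compared with genes of a like level in 20 level bins of 11868 genes. Of 29 members with a mean of at least 0.005 UMIs per thinned cell, 18 lay above the median of their bin and 3 lay in its top 10 percent. Those were Aldoc (Fano factor 1.68, range 1.14 to 2.18 over libraries, percentile 99.5), Slc2a3 (1.22, percentile 97.6) and Ddit4 (1.08, percentile 93.9). The percentile of Slc2a3 rests on a mean of 0.0075 UMIs per cell.

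**Figure D2:**
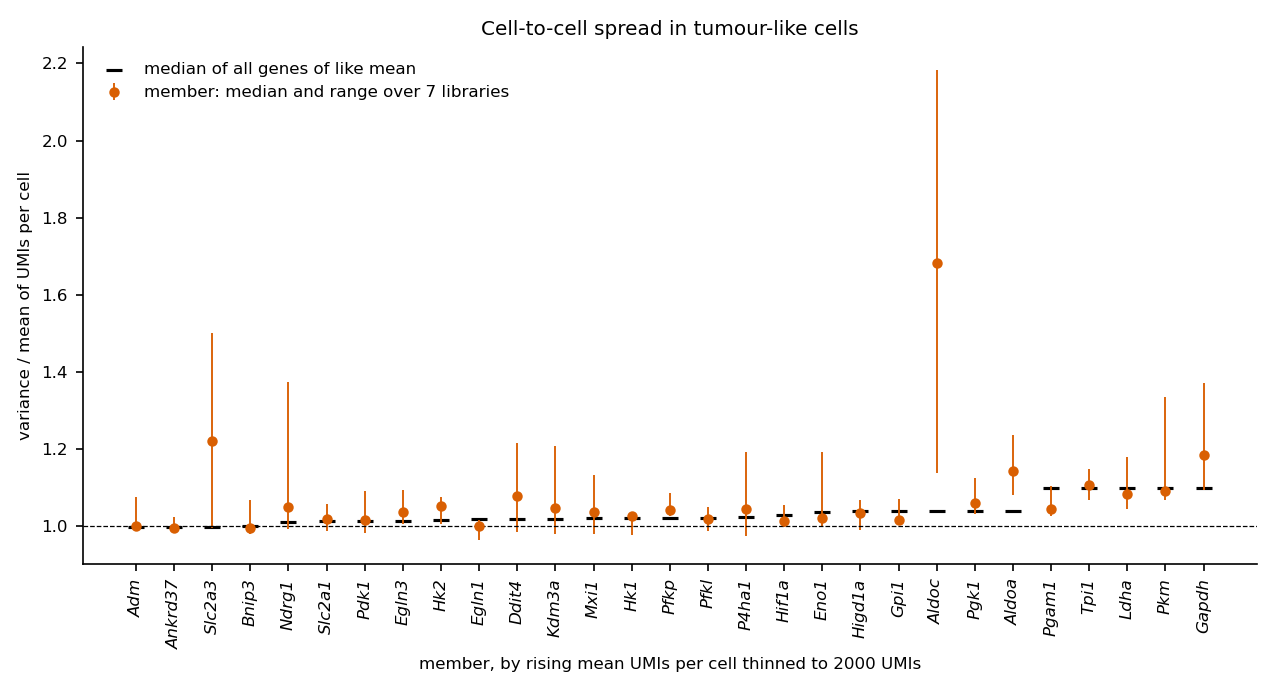
Fano factor of 29 members in tumour-like cells thinned to 2000 UMIs, as the median over the 7 libraries (points) with the range (lines), beside the median of genes of like level. Aldoc stands apart at 1.68, and Gapdh (1.18) and Aldoa (1.14) come next among the abundant enzymes.

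Gapdh was detected in 73.1% to 93.9% of thinned tumour-like cells and in 96.2% to 98.8% before thinning. Its Fano factor was 1.18, and that of the summed glycolysis members was 1.27 to 2.06. Aldoc was detected in 61.5% of thinned tumour-like cells in UT, in 22.7% to 23.4% in IgG replicate 2, BP replicate 1 and CD40, and in 4.01% to 5.62% in IgG replicate 1, BP replicate 2 and BPI. The share in T-like cells, which should lack it, was 0% to 9.47%, with median depths of 2392 to 6094 UMIs per T-like cell and 10597 to 21860 UMIs per tumour-like cell. Only the 4 libraries outside the consecutive trio exceeded that range. Where Aldoc was common, its level was uneven between cells: in UT the median cell held 1 UMI, the cell at the 90th percentile 4 and the highest 15.

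To ask whether the members move together among tumour-like cells, the cells with at least 1 UMI of Car9, Egln3, Ankrd37 or Adm at 2000 UMIs were set against the other tumour-like cells of the same library. These index-positive cells were 8.20% of UT, 4.50% and 3.88% of the IgG libraries, 4.17% and 3.03% of the BP libraries, 3.81% of BPI and 3.88% of CD40. Nearly all index-positive cells held exactly 1 such UMI: 188 of 207 in UT, 188 of 193 in IgG replicate 1 and 156 of 159 in BPI. Most were index-positive through Egln3, which had a UMI in 1.93% to 6.06% of the cells. In T-like cells, where the median depth was lower before thinning, the Egln3 share was 0% to 2.52%, and 4 of the 7 tumour-like values lie above that range. Of the 28 other members 27 were tested. Of these, 0 were called by the edgeR quasi-likelihood test with the library as a block, 3 had an unadjusted p under 0.05, and DESeq2 called 0. Over all 13097 genes edgeR called 0.0687%, an unadjusted p under 0.05 was reached by 8.03%, and DESeq2 called 0.0458%. The median log2 difference of the 27 was 0.01 (15 higher, 12 lower) and that of all genes -0.05. With cells thinned to 4000 UMIs, 23 were estimated higher and 4 lower (median 0.10), 10 had an unadjusted p under 0.05 against 1105 of all 14049 genes, and 0 were called.

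The largest positive log2 differences were those of Bnip3 (0.46 ± 0.33, SE), Pdk1 (0.40 ± 0.27) and P4ha1 (0.36 ± 0.13, edgeR adjusted p = 0.3141). P4ha1 was at 67.6 CPM in index-positive and 42.5 CPM in index-negative cells of UT, at 140 and 57.0 in BP replicate 1, and within 12 CPM of each other in each of the other 5 libraries. It was higher in index-positive cells in 4 of 7 libraries. Gapdh (-0.11 ± 0.04) and Higd1a (-0.22 ± 0.09) had unadjusted p-values under 0.05 in the other direction. The glycolytic enzymes Aldoa, Pkm, Tpi1 and Eno1 differed by at most 0.01. Of the 9 genes called by edgeR, 4 were the index genes themselves and 5 were lower in index-positive cells: the chaperone Hspa9 (-0.30), the elongation factor Eef2 (-0.18), the cytokine-signalling inhibitor Socs3 (-0.30), the ribosomal gene Rpl17 (-0.15) and the nuclear envelope gene Banf1 (-0.27). With Bnip3, Ndrg1, Pdk1 and P4ha1 as index genes in their place, Slc2a1 was the 1 member of 26 called, higher in index-positive cells (0.52, edgeR adjusted p = 0.0177), beside 221 of all 12972 genes, of which 202 were lower.

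VEGF blockade was next compared with IgG in tumour-like cells, where no member passed the test. edgeR called 0 of 32 members in BP and 0 of 32 in BPI, with 2 and 0 members at an unadjusted p under 0.05, and DESeq2 called 0 in either. Among all 20136 genes edgeR called 0% in each comparison, 2.06% (BP) and 0.998% (BPI) reached an unadjusted p under 0.05, and DESeq2 called 0.447% and 0.104%. In BP 23 members were estimated higher and 9 lower, with a median log2 difference of 0.13 against 0.003 for all genes, and BPI gave 23 and 9 with 0.13 against -0.05. These medians depend on single libraries: without IgG replicate 2 the medians were 0.003 in BP (16 higher, 16 lower) and 0.04 in BPI, and without IgG replicate 1 they were 0.30 and 0.40. Without BP replicate 1 the BP median was 0.08, and without BP replicate 2 it was 0.24. With UT among the controls the medians were 0.13 in BP (17 higher, 15 lower) and -0.05 in BPI (14 higher, 18 lower), which turns the BPI direction.

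Slc2a1 was at 24.7 in UT, 8.72 and 7.58 CPM in the IgG libraries, 28.5 and 12.3 in BP, 10.9 in BPI and 8.38 in CD40 in tumour-like cells. Ndrg1 (chr15:66929318-66969640, minus strand) was at 8.14 in UT, 3.60 and 4.94 CPM in IgG, 24.4 and 7.96 in BP, 9.11 in BPI and 6.58 in CD40. For both, every BP and BPI library lay above both IgG libraries, and BP replicate 1 was the highest library, with UT close to it for Slc2a1. The log2 differences were 1.27 ± 0.44 and 1.87 ± 0.56 (SE, edgeR adjusted p = 0.9999 for both). Hk2, Pdk1 and Ddit4 had the same order without overlap, so 5 of 32 members lay above in every BP and BPI library against 6.41% of all genes, and 0 lay below against 12%. The 12 monocyte/macrophage markers, all detected in tumour-like cells of every library, summed to 26.6 and 13.9 CPM in IgG, 110 and 39.2 in BP, 57.1 in BPI, 20.3 in CD40 and 121 in UT, the same order as Slc2a1 and Ndrg1 between IgG and the BP and BPI libraries. Of 12 dissociation-stress genes 9 were estimated higher in BP (median 0.42) and 12 in BPI (median 1.05), with 0 called by edgeR and 1 and 2 at an unadjusted p under 0.05. Their part in the result was not tested.

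Some members of tumour-like cells separated by library set. Pfkp was at 11.0 in UT, 42.2 and 11.6 CPM in IgG, 38.3 and 58.0 in BP, 56.5 in BPI and 10.9 in CD40, so the IgG libraries differed from each other as much as from BP. The consecutive trio lay above all other libraries for Pfkp and P4ha2 and below all others for Hk1, Gpi1, Aldoc, Slc16a3, Bnip3 and Adm. Of all 10888 genes with a mean of at least 5 CPM, 7.89% lay above in the trio and 31.2% below. The members were taken without that limit on level, and Slc16a3 lay under it, so the sets are not quite alike. Within the trio, on the rescaled log2 CPM, BP replicate 2 exceeded IgG replicate 1 for 3 of 15 members with a mean log2 CPM of at least 5 (median -0.15, all genes 0.004), and BPI for 7 of 15 (median -0.03, all genes 0.04). Of those higher in BPI, Gapdh (0.10), Pkm (0.09) and Pgam1 (0.11) differed so little that their sign depends on the rescaling. Across sets, BP replicate 1 exceeded IgG replicate 2 for 14 of the 15 (median 0.24, all genes 0.07). Between the controls, IgG replicate 2 exceeded IgG replicate 1 for 4 of the 15 (median -0.42, all genes -0.04), a larger difference than any of these. The other members with the largest estimates among those with an average log2 CPM of at least 5 were, in BP, Pfkp (0.82 ± 0.71), P4ha1 (0.40 ± 0.30), Eno1 (0.30 ± 0.44) and Egln1 (0.27 ± 0.56), followed by Mxi1 (0.23 ± 0.26), Pgk1 (0.14 ± 0.25), Aldoc (-0.13 ± 1.10) and Hif1a (0.12 ± 0.20). In BPI they were Aldoc (-1.95 ± 1.49), Pfkp (1.24 ± 0.84), Egln1 (-0.51 ± 0.71) and Hk1 (-0.41 ± 0.36), followed by P4ha1 (0.32 ± 0.36), Pgam1 (0.31 ± 0.32), Higd1a (0.31 ± 0.36) and Mxi1 (0.22 ± 0.31) (log2 difference ± SE). None of these estimates passed the test.

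**Figure D3:**
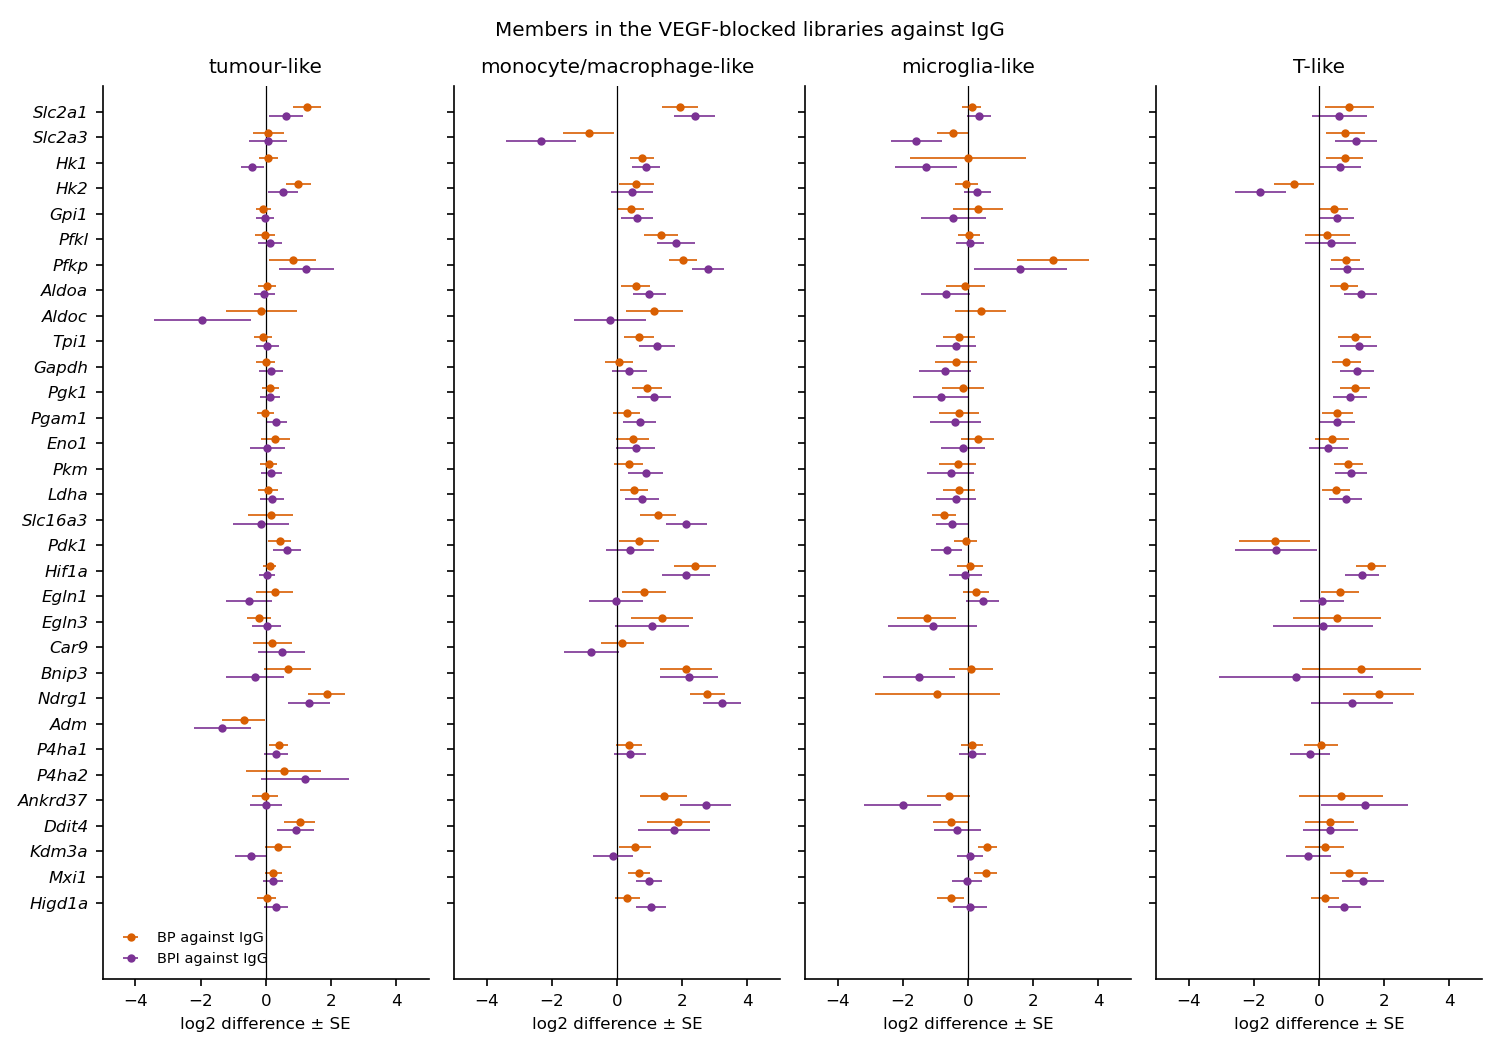
Estimated log2 difference (edgeR, with its SE) of each tested member in BP and BPI against IgG, by cell class. Estimates too imprecise or beyond the plotted range were left out. Most points in macrophages, T-like cells and tumour-like cells lie right of 0, those of tumour-like cells by a smaller median difference. Those in microglia lie on either side.

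In monocyte/macrophage-like cells Slc2a1, Pfkp, Hif1a and Ndrg1 were among the members at a higher level in every BP and BPI library than in both IgG libraries, but no member passed the edgeR test. The other glucose transporter, Slc2a3, was at a lower level in every BP and BPI library (1.55 to 9.11 CPM, IgG 11.9 and 10.4 CPM), and the oxygen sensors Egln1 and Egln3 overlapped between the groups. Pfkp, the platelet form of phosphofructokinase (chr13:6579768-6648777, minus strand), was at 68.0 and 40.1 CPM in IgG, 243 and 173 in BP, 264 in BPI, 47.5 in CD40 and 153 in UT. Slc2a1 was at 35.7 and 12.6 CPM in IgG, 112 and 55.3 in BP, 84.5 in BPI, 21.2 in CD40 and 79.1 in UT. Neither gene overlapped between the IgG libraries and the BP and BPI libraries, CD40 was beside IgG, and UT was high without VEGF blockade. The log2 differences of Pfkp were 2.04 ± 0.44 in BP (SE, edgeR adjusted p = 0.3074) and 2.79 ± 0.50 in BPI (edgeR adjusted p = 0.1285), and those of Slc2a1 were 1.94 ± 0.55 and 2.39 ± 0.62.

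Hif1a (chr12:73901375-73947530, plus strand) was at 105 and 73.4 CPM in IgG, 759 and 171 in BP, 277 in BPI, 94.98 in CD40 and 255 in UT. Ndrg1 was at 5.10 and 3.71 CPM in IgG, from 3 and 5 UMIs, and at 35.9 and 18.8 in BP, 28.3 in BPI, 9.23 in CD40 and 11.7 in UT. Both separated the groups without overlap, and BP replicate 1 was the highest library for each. The log2 differences were 2.39 ± 0.65 (BP) and 2.12 ± 0.73 (BPI) for Hif1a, and 2.77 and 3.23 for Ndrg1.

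Slc16a3 (chr11:120948480-120960868, plus strand) and Bnip3 were higher on average without a clean separation, and Pfkl, the liver form of phosphofructokinase, separated only narrowly. Slc16a3 was at 54.4 and 25.2 CPM in IgG, 131 and 48.6 in BP, 121 in BPI, 37.6 in CD40 and 130 in UT. Pfkl was at 27.2 and 17.8 CPM in IgG, 79.7 and 27.9 in BP, 54.7 in BPI, 23.6 in CD40 and 98.8 in UT. Bnip3 was at 13.6 and 9.64 CPM in IgG, 82.5 and 12.2 in BP, 37.6 in BPI, 10.9 in CD40 and 87.8 in UT. BP replicate 2 overlapped with IgG for Slc16a3 and Bnip3 and exceeded it narrowly for Pfkl. Of the enzymes of the later steps, Gapdh overlapped between the groups, at 1099 and 1154 CPM in IgG, 1246 and 994 in BP and 1044 in BPI. Pgk1 did not overlap, at 185 and 147 CPM in IgG, 419 and 192 in BP and 261 in BPI. Tpi1 (log2 difference 0.68 ± 0.47 in BP and 1.22 ± 0.56 in BPI), Mxi1 (0.67 ± 0.34 in BP) and Higd1a (1.06 ± 0.46 in BPI) completed the members with the largest differences.

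Of the 32 members 30 passed the filter on low counts in this class, Adm and P4ha2 being the 2 that did not. edgeR called 0 in BP and 0 in BPI, with 7 and 9 members at an unadjusted p under 0.05. DESeq2 called 4 in BP (Slc2a1, Hif1a, Pfkp and Ndrg1) and 4 in BPI (Slc2a1, Slc16a3, Pfkp and Ndrg1). Among all 11836 genes edgeR called 0% in either comparison, 7.7% (BP) and 10.3% (BPI) reached an unadjusted p under 0.05, and DESeq2 called 1.56% and 3.14%. In BP 29 of the tested members were estimated higher and 1 lower, with a median log2 difference of 0.68 against 0.03 for all genes. Without BP replicate 1 the BP median was 0.35, with 20 of 28 members higher, and without BP replicate 2 it was 1.02. In BPI 25 were higher and 5 lower, with a median of 0.94 against -0.01. Without overlap, 12 of 30 lay above IgG in every BP and BPI library (Slc2a1, Hk1, Pfkl, Pfkp, Aldoa, Pgk1, Ldha, Hif1a, Ndrg1, Ankrd37, Ddit4 and Mxi1), against 10% of all genes. Slc2a3 alone lay below, against 19.9% of all genes.

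**Figure D4:**
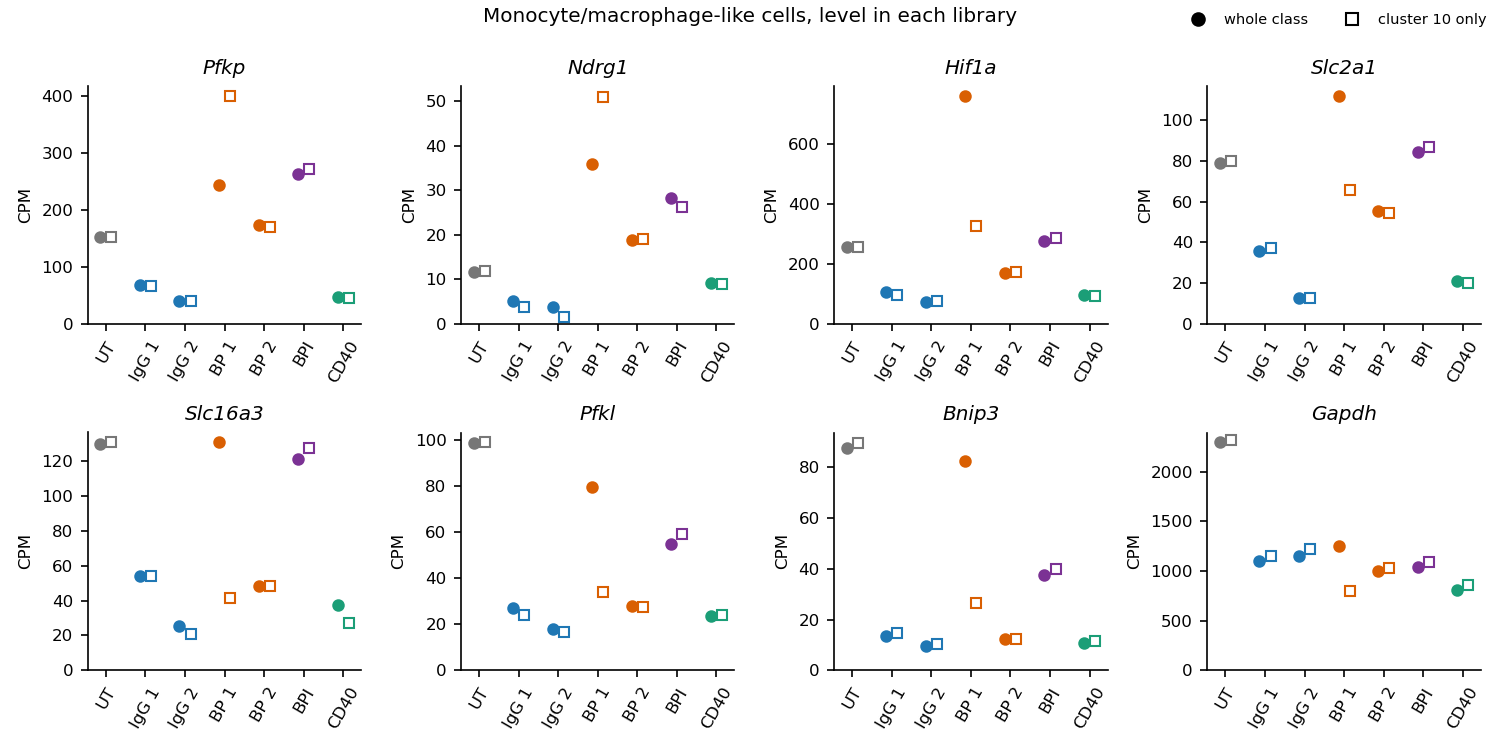
Levels (CPM) of 8 members in monocyte/macrophage-like cells in each library, for the whole class (filled circles) and for the cells of cluster 10 only (open squares). Pfkp, Slc2a1, Hif1a and Ndrg1 lie higher in BP and BPI than in both IgG libraries in either set of cells, while Slc16a3, Pfkl and Bnip3 of BP replicate 1 lie lower within cluster 10 than in the whole class. Within cluster 10, Gapdh lies lower in BP and BPI than in both IgG libraries.

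The make-up of the class differed between libraries. A cluster led by Ccl8, Arg1 and Mrc1 (cluster 12) held 1395 cells, 1388 of them from BP replicate 1, and 367 of the 524 cells of cluster 22 also came from there. The other libraries sat mainly in cluster 10, led by Ms4a4c, Cxcl2 and Lyz2, which held 49 to 588 cells in every library. Within cluster 10 alone, a comparison chosen after seeing the data, Pfkp was at 67.0 and 40.0 CPM in IgG, 400 and 170 in BP and 272 in BPI, and Hif1a at 96.8 and 76.0 CPM in IgG, 325 and 172 in BP and 287 in BPI. Slc16a3 in BP replicate 1 was 41.3 CPM there, within the IgG range, against 131 CPM in the whole class, and Bnip3 was 26.7 against 82.5 CPM. In BP replicate 1, Gapdh (796 CPM against 1154 and 1219 CPM in IgG), Pkm (349 CPM against 575 and 421 CPM), Pgam1 (197 CPM against 287 and 293 CPM) and Aldoa (328 CPM against 478 and 370 CPM) lay below IgG in this cluster. Pgk1 (257 CPM against 194 and 149 CPM) and Ldha (442 CPM against 393 and 288 CPM) lay above it. Gapdh was also below both IgG libraries in BP replicate 2 (1030 CPM) and in BPI (1087 CPM) within this cluster. The 32 members summed to 4380 and 3735 CPM in IgG, 4385 and 4235 in BP and 5409 in BPI within cluster 10. Above both IgG libraries in every BP and BPI library lay 10 of 30 members (background 10.6%). Gapdh and Slc2a3 lay below both in every BP and BPI library, and the share of all genes below was not computed for this cluster. The fit on cluster 10 called 0 members, with 5 (BP) and 11 (BPI) at an unadjusted p under 0.05, and its median log2 difference was 0.27 in BP and 0.88 in BPI. Of all 10772 genes in that fit edgeR called 0 in BP and 21 in BPI, with 860 and 1186 at an unadjusted p under 0.05.

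Other features of the class also differed between libraries. The 12 dissociation-stress genes summed to 3536 and 2286 CPM in IgG, 2789 and 4974 in BP and 5586 in BPI, so BP replicate 1 lay between the IgG libraries. The 10 cell-cycle genes summed to 722 and 1060 CPM in IgG and 259 to 389 in BP and BPI. The 10 microglia markers summed to 1446 and 3015 CPM in IgG, 442 and 931 in BP, 610 in BPI, 1983 in CD40 and 744 in UT, with 8 to 10 of them detected in every library. The 16 tumour markers summed to 561 and 704 CPM in IgG and 386 to 444 in BP and BPI. The 10 endothelial markers ran the same way as the members, at 78.2 and 46.0 CPM in IgG, 581 and 125 in BP, 163 in BPI, 74.5 in CD40 and 199 in UT, with 4 to 10 of them detected in each library. Median depth was 5994 and 15185 UMIs per cell in IgG and 4612 to 8108 UMIs in BP and BPI, which overlap. Their part in the result was not tested.

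Within the consecutive trio, on the rescaled log2 CPM, BPI exceeded IgG replicate 1 for 17 of 18 members with a mean log2 CPM of at least 5 (median 0.83, all genes 0.20), and BP replicate 2 for 14 of 18 (median 0.15, all genes 0.11). On that scale Pfkp differed by 1.52 and Hif1a by 0.87 between BP replicate 2 and IgG replicate 1. Gapdh (0.03) and Slc16a3 (0.02) hardly differed, and both were lower in BP replicate 2 in the CPM given above. The count of 14 thus depends on the rescaling. Across sets, BP replicate 1 exceeded IgG replicate 2 for 18 of 18 (median 0.99, all genes 0.17). With UT counted among the controls the median was 0.06 in BP, with 16 members higher and 14 lower, and 0.18 in BPI.

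In T-like cells most glycolytic enzymes and Hif1a were higher in BP and BPI than in IgG, again short of the adjusted threshold. Hif1a was at 106 and 81.1 CPM in IgG, 415 and 226 in BP, 214 in BPI, 162 in CD40 and 200 in UT. Its IgG values rest on 13 and 18 UMIs. The groups did not overlap, CD40 fell between them, and the log2 difference was 1.60 ± 0.46 in BP (SE, edgeR adjusted p = 0.06297) and 1.31 ± 0.52 in BPI (edgeR adjusted p = 0.4138).

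Pgk1 (chrX:106187100-106203699, plus strand) was at 65.5 and 90.2 CPM in IgG, 248 and 147 in BP, 146 in BPI, 77.1 in CD40 and 360 in UT. Gapdh (chr6:125161715-125166467, minus strand) was at 418 and 347 CPM in IgG, 917 and 627 in BP, 796 in BPI, 400 in CD40 and 1577 in UT. Both separated BP and BPI from IgG, with CD40 at the IgG level and UT the highest library. Aldoa was at 246 and 158 CPM in IgG, 409 and 344 in BP, 446 in BPI, 205 in CD40 and 669 in UT. Pkm was at 164 and 149 CPM in IgG, 441 and 228 in BP, 288 in BPI, 158 in CD40 and 831 in UT. Slc16a3 had 0 UMIs in both IgG libraries. Against a floor of 3 counts over the group (8.72 CPM), its level was 1.89 times the floor in BP (181 UMIs) and 1.32 times in BPI (21 UMIs). The counting error of the BP and BPI counts is not in these ratios. The estimates of Tpi1 (1.09 ± 0.50 in BP and 1.21 ± 0.56 in BPI), Mxi1 (0.92 ± 0.59 and 1.34 ± 0.64), Pfkp (0.81 ± 0.45 in BP) and Slc2a3 (0.81 ± 0.59 and 1.14 ± 0.64) had the same sign. Hk2 was estimated lower in BPI (-1.80, edgeR adjusted p = 0.5432), but its IgG libraries were themselves at 8.19 and 58.6 CPM.

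**Figure D5:**
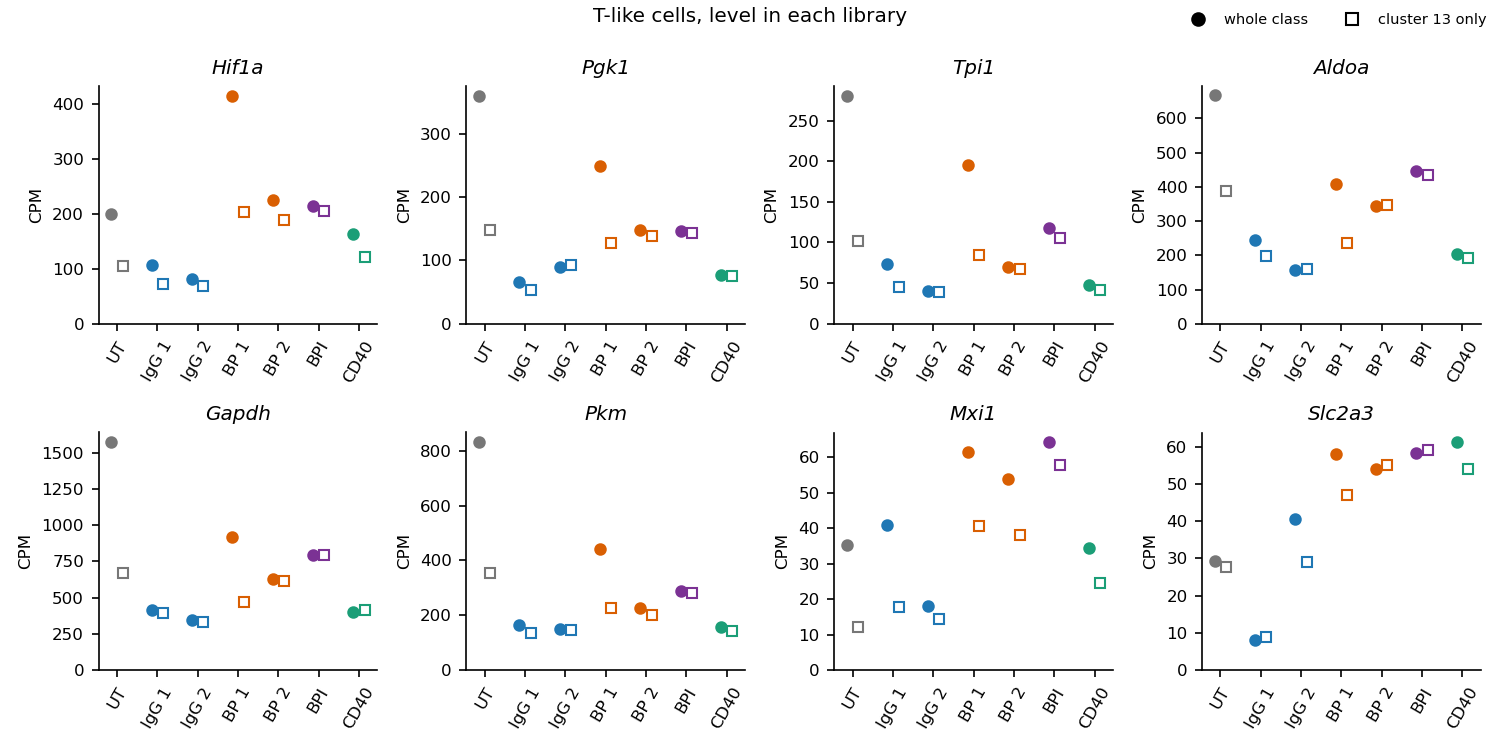
Levels (CPM) of 8 members in T-like cells in each library, for the whole class (filled circles) and for cluster 13 only (open squares). Hif1a, Gapdh and Pgk1 lie higher in BP and BPI than in both IgG libraries in the whole class, and UT is the highest library for Gapdh and Pgk1.

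The filter on low counts passed 28 of the 32 members in T-like cells. edgeR called 0 in BP and 0 in BPI, with 5 and 7 at an unadjusted p under 0.05, and DESeq2 called 1 in BP (Hif1a) and 0 in BPI. Among all 9214 genes edgeR called 0.825% in BP and 0.619% in BPI, 7.92% and 6.88% reached an unadjusted p under 0.05, and DESeq2 called 0.391% and 0.282%. Of the tested members 26 were estimated higher and 2 lower in BP (median 0.73, all genes 0.03), and 23 and 5 in BPI (median 0.71, all genes 0.03). Without BP replicate 1 the BP median was 0.46, with 18 members higher, 6 lower and 1 at an unadjusted p under 0.05. Without overlap, 15 of 28 lay above IgG in every BP and BPI library against 20.2% of all genes, and Pdk1 alone lay below against 9.7%. The 15 were Slc2a1, Slc2a3, Hk1, Pfkp, Aldoa, Gapdh, Pgk1, Pgam1, Pkm, Ldha, Slc16a3, Hif1a, Ankrd37, Mxi1 and Higd1a.

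The T-like class was also uneven. Cluster 19, led by Tnfrsf4 and Il2ra, and cluster 21, led by Cd8a and Gzmb, held 526 and 425 cells of BP replicate 1 and 4 or fewer in each IgG library. Cluster 13 held 35 to 556 cells in every library. Within it 13 of 28 members lay above both IgG libraries in every BP and BPI library (background 17.9%). Pdk1 lay below both in every BP and BPI library, and the share of all genes below was not computed for this cluster. In the fit on cluster 13, 0 members were called, 1 (BP, Hif1a at 1.34) and 6 (BPI) had an unadjusted p under 0.05, and the median log2 difference was 0.31 in BP and 0.72 in BPI. Of all 8553 genes in that fit edgeR called 2 in BP and 31 in BPI, with 362 and 513 at an unadjusted p under 0.05. Over the whole class 9 of 10 cell-cycle genes were estimated higher in BP (median 1.05), and the 12 monocyte/macrophage markers summed to 1728 and 1596 CPM in IgG, 1892 and 2951 in BP and 3343 in BPI, with 6 to 12 of them detected. Dissociation-stress genes were estimated lower in BP for 10 of 11. Their part in the result was not tested. Within the trio, BP replicate 2 and BPI each exceeded IgG replicate 1 for 15 of 17 members (medians 0.67 and 1.14, all genes 0.24 and 0.35). Across sets, BP replicate 1 exceeded IgG replicate 2 for 16 of 17 (median 1.13, all genes 0.20). With UT among the controls the medians were -0.04 in BP and -0.02 in BPI.

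In microglia-like cells the estimates lay on either side of 0. Of 29 members tested, edgeR called 0 in BP and 0 in BPI, with 0 and 0 at an unadjusted p under 0.05, and DESeq2 called 0 in both. Among all 12323 genes edgeR called 0% in each, 4.6% and 3.41% reached an unadjusted p under 0.05, and DESeq2 called 0.357% and 0.179%. The median log2 difference was -0.07 in BP (12 higher, 17 lower) and -0.39 in BPI (8 higher, 21 lower), against -0.04 and -0.06 for all genes. With UT among the controls the medians were -0.28 and -0.65. Slc2a3, Slc16a3, Egln3 and Ankrd37 lay below both IgG libraries in every BP and BPI library, 4 of 29 against 12.1% of all genes, and 0 lay above against 6.58%.

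The BP libraries went opposite ways in microglia. Gapdh was at 1004 and 972 CPM in IgG, 1153 and 334 in BP, 545 in BPI, 771 in CD40 and 1970 in UT. Pgk1 was at 179 and 127 CPM in IgG, 212 and 47.4 in BP, 76.5 in BPI, 121 in CD40 and 255 in UT. BP replicate 1 was above and BP replicate 2 below both IgG libraries for each. Slc16a3 was at 86.1 and 62.4 CPM in IgG, 52.8 and 29.6 in BP, 46.8 in BPI, 60.8 in CD40 and 113 in UT (log2 difference -0.74 ± 0.38 in BP). Kdm3a was at 43.7 and 45.8 CPM in IgG, 59.6 and 76.97 in BP and 42.2 in BPI, and Mxi1 at 41.1 and 59.3, 62.3 and 88.8, and 45.3 CPM. They were the 2 of 29 members above IgG in both BP libraries, against 14.6% of all 12323 genes, and neither lay above both IgG libraries in BPI. The remaining members with large estimates in BP were Higd1a (-0.53 ± 0.42), Gapdh (-0.38 ± 0.64), Pkm (-0.32 ± 0.57), Gpi1 (0.31 ± 0.77) and Eno1 (0.30 ± 0.52). In BPI they were Pgk1 (-0.83 ± 0.85), Gapdh (-0.70 ± 0.81), Aldoa (-0.69 ± 0.75) and Pdk1 (-0.66 ± 0.47), then Pkm (-0.52 ± 0.72), Slc16a3 (-0.49 ± 0.49), Gpi1 (-0.45 ± 0.99) and Egln1 (0.45 ± 0.50).

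The libraries differed in other ways in this class. Dissociation-stress genes summed to 9835 and 8117 CPM in IgG, 2405 in BP replicate 1, 20948 in BP replicate 2 and 15907 in BPI, so the libraries with the lowest glycolysis sums had the highest stress sums. Of the 222 microglia-like cells of BP replicate 1, 219 came from cluster 27, led by Cd36 and C1q genes, which held at most 3 cells in each IgG library. The 10 microglia markers summed to 4943 in BP replicate 1 and to 9022 CPM or more in the other libraries, and the 12 monocyte/macrophage markers summed to 1805 CPM there, against 856 and 1488 CPM in IgG. The 10 endothelial markers summed to 252 CPM in BP replicate 1, against 47.6 and 58.7 CPM in IgG. Its median mitochondrial share was 4.67%, against 2.00% and 1.89% in IgG, and its median depth was 14846 UMIs per cell, against 3415 and 6984 in IgG. Their part in the result was not tested. Within the trio, BP replicate 2 exceeded IgG replicate 1 for 6 of 19 members (median -1.24, all genes 0.07) and BPI did for 7 of 19 (median -0.49, all genes 0.07). Across sets, BP replicate 1 exceeded IgG replicate 2 for 14 of 19 (median 0.35, all genes 0.005). Without BP replicate 1 the median of the members was -0.90, with 11 of 25 at an unadjusted p under 0.05 (979 of all 9333 genes). Without BP replicate 2 it was 0.29, with 2 of 31 called by edgeR (Pfkp and Gpi1) beside 817 of all 13276 genes. In each of these fits BP is 1 library, assumed to vary like the IgG pair, and without BP replicate 2 it rests on the 222 cells described above.

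Endothelial-like cells, the cells that VEGF acts on most directly, were too few for a test of BP or BPI against IgG, since fewer than 20 such cells were left in some libraries of the fit. Apart from the Slc2a1 values given above, Adm was at 22.6 and 63.4 CPM in IgG, 148 in BP replicate 1, 23.6 in BPI, 71.9 in CD40 and 104 in UT, with 0 UMIs in the 6 cells of BP replicate 2. Ndrg1 was at 4.52 and 32.1 CPM in IgG, 90.8 and 129 in BP, 47.3 in BPI, 83.0 in CD40 and 51.6 in UT. The value of 129 CPM rests on 2 UMIs (exact 95% Poisson interval 15.6 to 467 CPM) and that of 4.52 CPM on 1 UMI, so their order is not settled at this depth.

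The pathway lists beyond the members were described in the same way. Of 28 other genes of glycolysis and pyruvate handling 21 were tested in macrophages, and 0 were called in BP (14 higher, 7 lower, median 0.28) and 0 in BPI (11 higher, 10 lower, median 0.04). Among the largest estimates were those of Hk3, a hexokinase of myeloid cells (1.45 in BP and 2.00 in BPI), and Slc2a6, a sugar transporter (2.05 in BPI). Of 49 other hypoxia-response genes 41 were tested, 32 were estimated higher in BP (median 0.46) and 29 in BPI (median 0.51), and 0 were called. Among them Nos2, the inducible nitric oxide synthase, had 0 UMIs in both IgG libraries and in CD40, and was at 74.1 and 10.3 CPM in BP, 113 in BPI and 64.2 in UT. The 22 genes of the citric acid cycle and respiratory chain were balanced in macrophages, with 10 higher and 12 lower in BP (median -0.09) and 12 and 10 in BPI (median 0.01). In tumour-like cells this list had 3 higher and 19 lower in BP (median -0.09) but 19 and 3 in BPI (median 0.18), with 0 called in either.

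In T-like cells edgeR called 76 of all 9214 genes in BP and 57 in BPI, none of them members. Those on the lists described here were Mt1, Top2a and Epas1. Mt1, a metallothionein, rose in BP by a log2 difference of 2.56 (edgeR adjusted p = 0.01524), at 32.8 and 9.02 CPM in IgG against 163 and 82.4 in BP. Epas1, the HIF2 alpha subunit, rose in BPI by 2.72 (edgeR adjusted p = 0.01686), at 8.19 and 27.0 CPM in IgG, 43.4 and 90.5 in BP and 124 in BPI. The BPI value is 1 library, whose spread is taken from the other groups. Cxcr4, a chemokine receptor, did not pass in BP (log2 difference -1.77, edgeR adjusted p = 0.05551), at 41.0 and 135 CPM in IgG against 30.7 and 33.8 in BP. Top2a of the cell-cycle list rose in BP by 2.02 (edgeR adjusted p = 0.0346), although its IgG libraries were at 147 and 4.51 CPM. Of the 31 other hypoxia genes tested in these cells, 19 were estimated higher and 12 lower in BP (median 0.13). The citric acid cycle and respiratory chain list had 14 of 22 genes higher in BP (median 0.18) and 21 of 22 in BPI (median 0.52) in T-like cells, with 0 called by edgeR and 1 and 4 at an unadjusted p under 0.05. In tumour-like cells the other hypoxia genes had 29 higher and 18 lower in BP (median 0.12) and the other glycolysis genes 14 and 14 (median -0.02), with 0 called in either list.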

How the data were processed

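Single-cell RNA counts of 7 libraries were used as deposited: the authors' tables give whole UMI counts per gene and barcode, not normalized. The file headers name Cell Ranger 4, the submitters' processing notes name Cell Ranger 7.0.1 and mm10, and which applies to the counts is not settled. The labels give one chemistry, but UT lists 713553 barcodes and the other libraries 1487060 to 2310016. The members and the gene lists were chosen with earlier results of these data known. Another tumour model of the series was not analysed here.

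Barcodes with at least 1000 UMIs, 500 genes and at most 15% mitochondrial counts were kept. Doublets, the highest Scrublet scores at 0.8% per 1000 cells, were removed (3207 barcodes). Cells were clustered without batch correction (scanpy 1.11.5, 2000 variable genes, 30 components, 15 neighbours, Leiden resolution 1), and clusters were named from marker lists by a rule set after seeing the data. The UMIs of each class in each library were added up and compared by edgeR 4.0.16 (quasi-likelihood, TMM, filterByExpr, Benjamini-Hochberg adjustment, threshold 0.05) over 6 libraries, with UT outside the fit. The lone BPI and CD40 libraries, and the one left where a replicate is left out, were assumed to vary like the others. Classes with fewer than 20 cells in a library were not tested. Positions are those of GRCm38.

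All 32 members were reported. For each comparison up to 8 with the largest estimated difference at an average log2 CPM of at least 5 were given, by their level in every library or by the estimate alone, and, of other lists, genes that passed the threshold and some of the 3 largest. Genes added after their values were seen are Slc2a1 and Pfkp among the promoters and the examples of class levels. The alternatives were DESeq2 1.42.0, other size factors, no filter, leaving out each replicate, a replicate block, UT pooled with IgG, a minimum of 2000 UMIs, subtraction of free RNA, thinning depth and other index rules. A crossed block, a fit without CD40 and fits on 1 cluster were added after seeing the data. The tests were checked on simulated data. Same-numbered IgG and BP libraries did not deviate together in all classes (correlation -0.63 in tumour-like cells, -0.20 in macrophages, 0.11 in microglia and -0.07 in T-like cells), so they share only a number. Intervals are exact 95% Poisson intervals and, like the floor of 3 counts, cover counting error only.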

Additional observations from a re-analysis of the deposited data

Results flagged for a closer look

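The UT library stood outside the tests, and its summed level of the 32 members lay above both IgG libraries in every class described. The sum was 6656 CPM in tumour-like cells (IgG 3691 and 3433 CPM), 9539 CPM in monocyte/macrophage-like cells (IgG 4225 and 3619 CPM), 6858 CPM in microglia-like cells (IgG 4243 and 3608 CPM), 5783 CPM in endothelial-like cells (IgG 3456 and 3750 CPM) and 6452 CPM in T-like cells (IgG 2031 and 1925 CPM). This is a single library, and no test of the difference was made.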

How the results depend on the processing

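Of 118 alternative settings for the counts of members called, 103 gave the same count and 15 gave more, and the summed levels moved by less than the spread in 15 of 15. For BP in tumour-like cells the median over the members ranged from 0.003 to 0.30 over 12 settings, so it is not stable, and the report gives the other classes. In macrophages 0 members were called in BP, but DESeq2 called 4 (185 of all 11836 genes), the fit without the filter on low counts 5 (427 of 21394), and leaving out 1 replicate gave 0 to 6, the highest without BP replicate 2 (368 of 12214). In BPI these were 4 (372 of 11836), 7 (614 of 21394) and 0 to 4, again highest without BP replicate 2 (295 of 12214). Without BP replicate 2, Pfkp in BP differed by 2.15 (edgeR adjusted p = 0.03153) and Hif1a by 3.04 (edgeR adjusted p = 0.005638), but BP is then 1 library and the spread comes from the IgG pair alone. In microglia BP gave 1 without the filter (315 of all 22069 genes) and 0 to 2 when 1 replicate was left out. In T-like cells BP gave 1 by DESeq2 (36 of all 9214), 1 without the filter (118 of 19905) and 0 to 1 when 1 replicate was left out. In both classes the highest count was without BP replicate 2 (817 of 13276 genes in microglia and 251 of 9206 in T-like cells). The index split gave 2 with at least 2 index UMIs, Gapdh and Pkm, both lower in index-positive cells (622 of all 12128 genes, 610 of them lower), and 1, higher, with other index genes (221 of 12972). At that cut of 2 UMIs only 19 cells of UT and 3 to 8 cells of each other library were index-positive. The cause was not tested.

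With the replicate number as a block, 0 members were called in every class and comparison, beside, for BP and BPI, 0 of all 18615 and 0 of 19509 genes in tumour-like cells, 5 of 9472 and 52 of 10727 in macrophages, 10 of 10792 and 0 of 9442 in microglia, and 7 of 6238 and 57 of 9129 in T-like cells. The crossed pairing, added after seeing the data, called 5 in macrophages (513 of all 9472 genes), 1 in T-like cells (110 of 6238) and 0 in tumour-like cells and microglia for BP. With 2 IgG libraries of 64 and 77 macrophages and 58 and 39 T-like cells, depth limits the members of low level most.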
